A study of Arabidopsis thaliana with 9 samples.

Results

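A total of 188 probe sets of the Arabidopsis ATH1 array read lower in dexamethasone-treated leaves of a line with an inducible gene for the small peptide DVL4 than in leaves of either control, while the controls lay close to each other. They were chosen by their measured values among 22746 probe sets, of which they make 0.827%. On log2 intensity with a floor of 5, the mean of the DVL4 dex arrays had to lie at least 0.7 below each control mean, and all 3 DVL4 dex arrays below all 6 control arrays. The control means had to differ by less than 0.4 and each exceed an intensity of 80. Of 191 probe sets that met these limits, 3 were left out by name (AER, PRL and TRY). Because every comparison between the groups entered the choice, the levels of the members are given below as a description and carry no test. Where members are said below to be apart from the controls or without overlap, the choice required it, and only the margin varied. Values listed for a gene are dChip intensities on a linear scale for replicates 1, 2 and 3 of each group in turn.

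The groups came from Arabidopsis thaliana of the Columbia background carrying GVG, a transgene system whose driver is active only in the presence of the steroid dexamethasone (dex). DVL4 dex leaves came from the line with the DVL4 coding sequence behind GVG and were treated with 30 um dex in water, as the unit is written in the labels. DVL4 mock leaves came from the same line after mock treatment, and empty vector dex leaves from a line with GVG and no coding sequence, given dex. All plants were grown at 22 °C in 16 h days to the stage of 6 rosette leaves, and the largest leaf of each of 20 plants was collected 10 h after treatment and pooled to make a replicate. Each group had 3 such replicates, with an array for each. Each transgene is represented by a line, and how many independent transformants it stands for is not given in the sources used here. The controls differ from each other both in line and in dex, and the question put to the arrays was which transcripts answer to DVL4 rather than to the steroid. DVL4 itself is unnamed among the probe sets here, so its induction was not analysed here.

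DVL4 belongs to the DEVIL (ROTUNDIFOLIA4-LIKE) family of small plant peptides, which alter organ shape when overproduced and are tied to the polar growth and division of cells. Several of the members belong to processes of growing cells. Core histones of the replication-dependent kind are made in S phase, when new DNA is packed into nucleosomes, whereas histone variant H3.3 is made and placed independently of replication. Other members act in plastid gene expression, translation, the cell wall or the recognition of pathogens.

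The arrays had median intensities from 75.4 to 84.1, and the floor of 5 replaced 1114 to 1294 readings on each. The array's control probe sets for the Bacillus dap transcript gave 5' to 3' ratios from 0.228 to 0.278 on 3 arrays, the first and the second replicate of DVL4 dex and the first of empty vector dex, against 0.601 to 1.33 on the other 6. DVL4 dex therefore had 2 of its 3 arrays in the low class, and values with and without those arrays are given further on. Of the genes listed as markers of leaf mesophyll, 5 were measured (RCA, PRK, LHCB4.1, LHCB4.2 and SBPASE), with group means between 5136 and 10647. The 3 measured root genes (EXPA7, EXPA18 and PYK10) had group means between 14.3 and 39.2, and the flower genes SPL and AMS between 4.57 and 21.2. Levels of different probe sets are not comparable, so these values are given without setting the tissues against each other. No marker of vascular cells was measured under a gene name here.

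Among the members, 99 are listed with a gene each, 9 are listed with several genes, and 80 are unnamed here. The median member was lower in DVL4 dex by 1.05 on the log2 scale against DVL4 mock, a 2.07-fold difference, and by 0.92 against empty vector dex, a 1.89-fold difference. Over all 22746 probe sets the median differences were 0.01 and 0. In leaf pools, fewer cells of a type and less RNA per cell cannot be told apart in these values.

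The depth of the reduction varied widely over the set. The differences ran from -2.50 to -0.71 against DVL4 mock and from -2.82 to -0.71 against empty vector dex. At least a 2-fold difference was seen for 106 members against DVL4 mock, for 69 against empty vector dex and for 51 against both. The distance between the highest DVL4 dex array and the lowest control array was 0.52 at the median and ran from 0.0047 to 1.65. It was at least 0.5 for 105 members and at least 1 for 10.

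**Figure D1:**
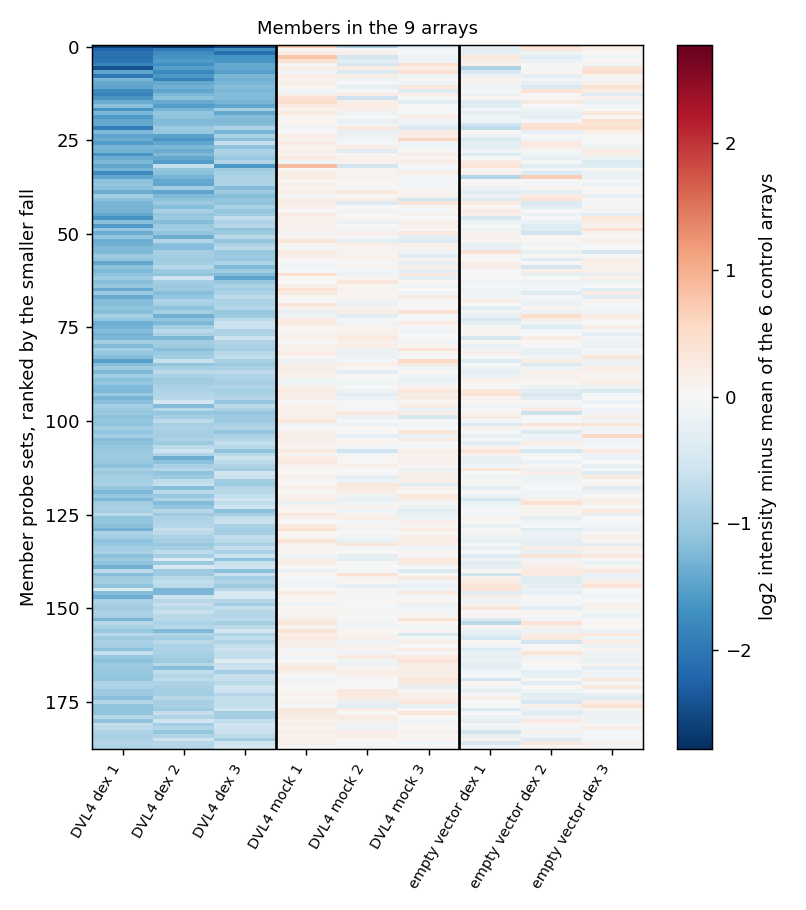
Log2 intensity of each of the 188 members (rows, ordered by the smaller of the differences from each control) in the 9 arrays (columns), minus the mean of the 6 control arrays; blue is lower. The 3 DVL4 dex columns are blue in every row, as the choice requires, and replicate 1 is the lowest of them for 119 members.

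In the fit across all 22746 probe sets with limma (adjusted p under 0.05), 187 of the 188 members were called lower in DVL4 dex than in DVL4 mock, beside 10.9% of all probe sets. Against empty vector dex 178 were called lower, beside 5.53% of all probe sets. Between the controls 0 members were called lower in DVL4 mock, beside 4.15% of all probe sets, and 1 was called higher, beside 2.05%. These counts follow from the choice and nothing is read from them. The member called between the controls, AT3G01060, had intensities of 212, 226 and 239 in DVL4 dex, against 542, 552 and 575 in DVL4 mock and 473, 371 and 426 in empty vector dex, and its controls sat at the limit of 0.4. The unnamed 254076_at missed the call against both controls. Its closest arrays nearly touched, at 62.2 in DVL4 dex replicate 2, against 62.4 in DVL4 mock replicate 2.

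The limit of 0.4 between the control means keeps each member's differences from the controls within 0.4 of each other, so nothing is read from their likeness. Within that limit, DVL4 mock was on balance a little above the empty vector arrays. DVL4 mock lay above empty vector dex for 135 members and below it for 53, with a median difference of 0.12 on the log2 scale. Over all 22746 probe sets the median of this difference was -0.02. Of the 22746 probe sets, 8913 were bright and level in the controls by the same limits, and the members make 2.11% of those. The same limits turned upward held for 109 probe sets.

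**Figure D2:**
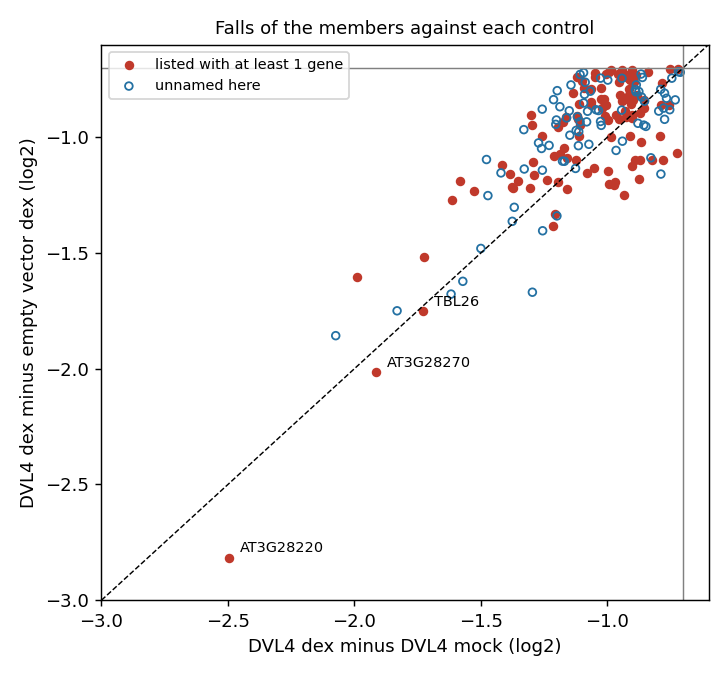
Log2 difference of DVL4 dex from DVL4 mock (x axis) and from empty vector dex (y axis) for each of the 188 members. Both axes share the DVL4 dex arrays, and the limit on the controls holds every point's values on the axes within 0.4 of each other. The points therefore lie near the diagonal by construction. Grey lines mark the limit of -0.7, filled points are listed with at least 1 gene, and AT3G28220, AT3G28270 and TBL26 lead the members with a gene name by the smaller of their differences.

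Core histones of classes H2B, H3 and H4 made up 10 of the 188 members. Class H2A, also a core histone, is not among the probe sets gathered here, so its members, if any, are not counted. Of 22 probe sets listed for core histone genes of classes H2B, H3 and H4, these 10 were chosen, and the family was put together after the values had been seen, so it is a description only. All 5 probe sets of histone H3.1, the replication-dependent H3, were members. Each of the 5 is listed for the same 5 genes, whose coding sequences are near-identical, so the copies cannot be told apart by name.

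Each H3.1 probe set separated the groups, as the choice required. The reading of 250434_at was 126, 189 and 197 in DVL4 dex, against 503, 529 and 505 in DVL4 mock and 407, 465 and 348 in empty vector dex. That of 264262_at was 358, 470.2 and 410.4 in DVL4 dex, against 887, 822 and 847 in DVL4 mock and 1024, 866 and 819 in empty vector dex. For 250433_at the intensities were 269.6, 293 and 353 in DVL4 dex, against 719.7, 671 and 683 in DVL4 mock and 693, 535 and 698 in empty vector dex. In all 3 probe sets the highest DVL4 dex array lay well under the lowest control array.

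The remaining H3.1 probe sets behaved in the same way. Intensities of 257714_at were 96.6, 92.6 and 129.6 in DVL4 dex, against 266, 197 and 247 in DVL4 mock and 227, 232 and 280.5 in empty vector dex. Those of 247192_at were 625, 709 and 739 in DVL4 dex, against 1311, 1196 and 1374 in DVL4 mock and 1376, 1211 and 1163 in empty vector dex. Over the 5 probe sets the median log2 difference was -1.16 against DVL4 mock and -1.13 against empty vector dex.

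Histone H3.3 was outside the set. Its 3 probe sets, listed for the same 3 genes, held 0 members, and their differences ran from -0.16 to 0.13 over both comparisons. For 252849_at the readings were 3187, 2729 and 3025 in DVL4 dex, against 2737, 2810.0 and 2613 in DVL4 mock and 2687, 3083 and 2875 in empty vector dex, and the groups overlapped. Those of 250397_at were 2516, 2737 and 2494 in DVL4 dex, against 2546, 2073 and 2550.0 in DVL4 mock and 2866, 2655 and 2789.8 in empty vector dex, again with overlap. Under median centring or quantile normalization the differences of the 5 H3.1 probe sets ran from -1.67 to -0.80 and those of the 3 H3.3 probe sets from -0.16 to 0.14. Without the 3 arrays with a low 5' ratio they ran from -1.38 to -0.68 for H3.1 and from -0.13 to 0.15 for H3.3.

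Histone H4 and histone H2B were in the set in part. Of 5 H4 probe sets, each listed for the same 8 genes, 2 were members. The reading of 252562_s_at was 136, 134 and 205 in DVL4 dex, against 432, 333 and 432 in DVL4 mock and 334, 359.7 and 369 in empty vector dex. That of 247692_s_at was 1182, 1287 and 1335 in DVL4 dex, against 2325, 2082 and 2028 in DVL4 mock and 2295, 2404 and 2207 in empty vector dex. The 3 other H4 probe sets, 251924_at, 266226_at and 261408_s_at, were also lower in DVL4 dex, by 0.44 to 0.67 on the log2 scale over both comparisons, and missed the limit of 0.7.

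Among 9 probe sets of H2B genes, HTB1, HTB2 and AT2G37470 were members. HTB1 had intensities of 157, 185 and 194 in DVL4 dex, against 373, 379 and 363 in DVL4 mock and 311, 357 and 295 in empty vector dex. Those of HTB2 were 167, 255 and 323 in DVL4 dex, against 571, 528 and 522 in DVL4 mock and 379, 502 and 635 in empty vector dex. AT2G37470 read 206, 291 and 287 in DVL4 dex, against 499, 554 and 509 in DVL4 mock and 486, 459 and 439 in empty vector dex. HTB2 varied more among the DVL4 dex arrays than HTB1 did, and neither overlapped the controls, as the choice required.

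A further H2B gene, AT5G02570, was outside the set because it was dim in empty vector dex and its controls were unlike each other. It had 20.2, 41.6 and 30.9 in DVL4 dex, against 92.8, 81.2 and 90.1 in DVL4 mock and 52.2, 60.1 and 59.0 in empty vector dex, a lower reading in every DVL4 dex array. HTB4, by contrast, had 1656, 1845 and 1825 in DVL4 dex, against 1609, 1608 and 1424 in DVL4 mock and 1867, 1800.0 and 1766 in empty vector dex, with overlapping groups. HTB11 had 289.7, 339 and 307 in DVL4 dex, against 401, 389.8 and 441 in DVL4 mock and 396, 389 and 409 in empty vector dex. It was lower in every DVL4 dex array, with log2 differences of -0.40 and -0.35, and missed the limit of 0.7. The other H2B genes AT2G28720, AT3G09480 and AT1G08170 differed by -0.42 to 0.49 on the log2 scale over both comparisons. Of these, AT3G09480 and AT1G08170 were dim, with group means from 22.4 to 40.1. Linker histone H1 had 0 members among 3 probe sets, with differences from -0.22 to 0.48.

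**Figure D3:**
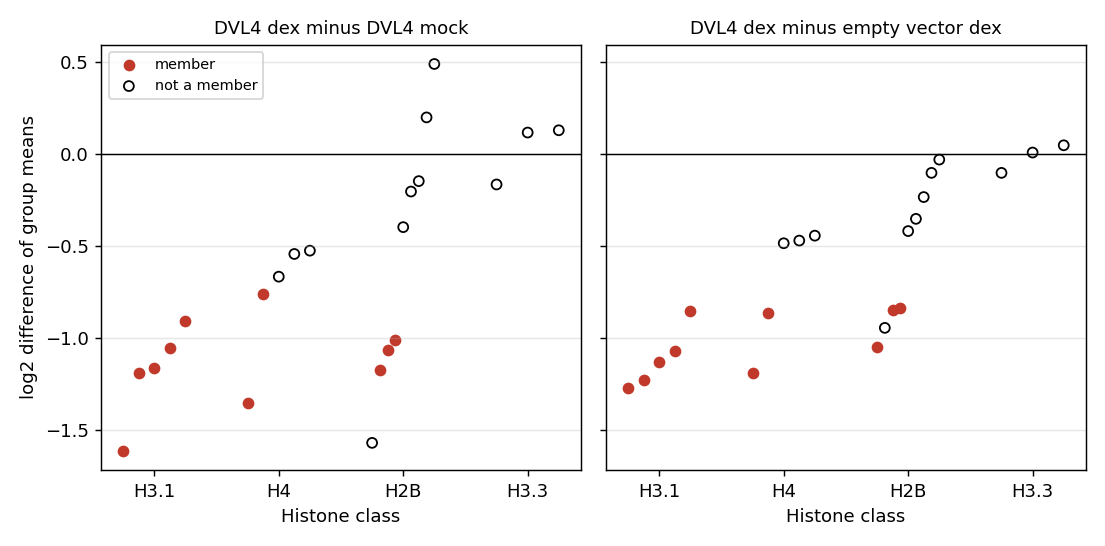
Log2 difference of group means (y axis) of DVL4 dex from DVL4 mock (left) and from empty vector dex (right) for 22 probe sets of core histones H2B, H3 and H4, by class. Filled points are members, and class H2A is not included. All 5 H3.1 points lie below -0.8 in both panels, and the 3 H3.3 points lie within 0.2 of 0.

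The replication enzyme in the set was POLA3, a primase subunit of DNA polymerase alpha, which starts new DNA strands. Its intensities were 38.2, 41.8 and 72.5 in DVL4 dex, against 135, 111 and 102 in DVL4 mock and 94.8, 132 and 109 in empty vector dex. Replicate 3 of DVL4 dex was the nearest to the controls and still lay below all of them. Read alone against the control arrays with a high 5' ratio, that replicate was lower by 0.66 (log2) against DVL4 mock and by 0.73 against empty vector dex, about as far apart as the limit of the choice. Among 32 replication genes listed for this comparison, POLA3 and the licensing inhibitor GEM were the only ones measured under a gene name, and GEM was not called, with log2 differences of 0.33 and 0.27. AT1G76110, which carries HMG-box and ARID DNA-binding domains, read 91.1, 99.7 and 134 in DVL4 dex, against 241, 230.0 and 195 in DVL4 mock and 149.7, 176 and 208 in empty vector dex, with the groups apart in both comparisons.

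The largest difference of any member was that of AT3G28220, a TRAF-like (MATH domain) family protein. Its intensities were 149, 137 and 162 in DVL4 dex, against 1543, 509.9 and 757 in DVL4 mock and 805, 1323 and 1088 in empty vector dex. The control arrays spread about 3-fold among themselves, yet the lowest of them, DVL4 mock replicate 2, was more than 3 times the highest DVL4 dex array. The DVL4 dex mean was 5.65-fold lower than DVL4 mock and 7.05-fold lower than empty vector dex, with log2 differences of -2.50 ± 0.34 against DVL4 mock and -2.82 ± 0.34 against empty vector dex (SE, n = 3 a group). The related TRAF-like gene ZW9 had 231, 279.6 and 260.4 in DVL4 dex, against 658, 437 and 725 in DVL4 mock and 682, 431 and 542 in empty vector dex, lower in DVL4 dex without overlap.

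AT3G28270, a membrane-associated protein of the At14a-like family, followed by the smaller of its differences. It gave 366, 427 and 523 in DVL4 dex, against 1692, 1637 and 1581 in DVL4 mock and 1387, 2093 and 1859.6 in empty vector dex, a log2 difference of -1.92 ± 0.16 against DVL4 mock and -2.02 ± 0.16 against empty vector dex (SE, n = 3 a group). Every DVL4 dex array was far below the lowest control array, empty vector replicate 1. AT3G28220 and AT3G28270 lie 5 protein-coding genes apart in the RefSeq order of the genome.

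Cell wall and surface genes made a further group of 6. TBL26, of the family of wall polysaccharide O-acetyltransferases, read 335, 461 and 442 in DVL4 dex, against 1839, 1105 and 1223 in DVL4 mock and 1532, 1193 and 1428 in empty vector dex, a log2 difference of -1.73 ± 0.19 against DVL4 mock and -1.75 ± 0.19 against empty vector dex (SE, n = 3 a group). AT5G02890, an acyltransferase of the HXXXD family, had 107, 139 and 175 in DVL4 dex, against 484, 486 and 402 in DVL4 mock and 380.1, 357 and 450.0 in empty vector dex. AT5G35735, a protein with cytochrome b561 and DOMON domains, had 244, 250.5 and 268 in DVL4 dex, against 647, 681 and 544 in DVL4 mock and 502, 684 and 538 in empty vector dex. In these 3 genes the DVL4 dex arrays were clear of every control array.

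The others of this group were nearer to the limits. EXPB1, a beta-expansin that loosens walls, had 63.4, 66.6 and 85.8 in DVL4 dex, against 133, 152 and 131 in DVL4 mock and 107, 119 and 129 in empty vector dex. The extensin-like AT5G19810 read 40.4, 44.9 and 70.7 in DVL4 dex, against 90.7, 83.0 and 115 in DVL4 mock and 79.9, 95.5 and 78.6 in empty vector dex. AT3G48460, a GDSL esterase/lipase, gave 141, 165 and 155 in DVL4 dex, against 325, 400.2 and 334 in DVL4 mock and 308, 293 and 293 in empty vector dex. Only AT3G48460 kept a wide margin, and AT5G19810 in DVL4 dex replicate 3 came close to the lowest empty vector array.

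**Figure D4:**
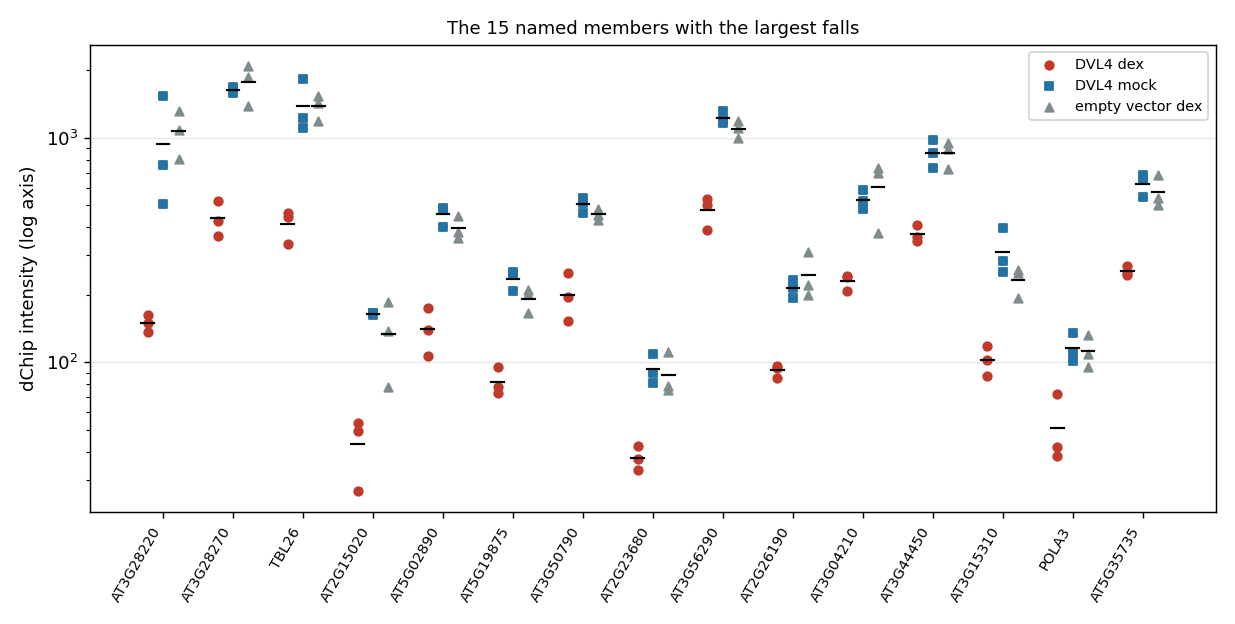
Intensity in each array (log axis) of the 15 members with a gene name that had the largest reductions, in DVL4 dex, DVL4 mock and empty vector dex leaves; bars are means of 3 arrays. Within each gene every DVL4 dex point is below every control point, as the choice requires. Levels of different probe sets are not comparable.

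Other members with large differences have less certain roles. AT2G15020 had 26.7, 49.5 and 53.6 in DVL4 dex, against 165, 165 and 162 in DVL4 mock and 77.7, 138 and 185 in empty vector dex, and its empty vector replicate 1 stood apart from the other control arrays. AT5G19875 read 95.0, 73.3 and 77.3 in DVL4 dex, against 253, 244 and 208 in DVL4 mock and 167, 209 and 201 in empty vector dex. In both genes DVL4 mock was the higher control. AT3G56290 had 388, 536 and 502 in DVL4 dex, against 1197, 1164 and 1319 in DVL4 mock and 1105, 996 and 1193 in empty vector dex. AT3G15310 read 103, 86.8 and 118 in DVL4 dex, against 282, 252 and 396 in DVL4 mock and 194, 249 and 258 in empty vector dex. In all 4 genes the groups were separate, most narrowly in AT2G15020.

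Membrane and lipid-related proteins were present as well. AT2G23680, of the WCOR413 cold acclimation family, had 37.0, 42.3 and 33.2 in DVL4 dex, against 109, 80.6 and 89.3 in DVL4 mock and 75.2, 78.4 and 111 in empty vector dex. AT5G19750, of the Mpv17/PMP22 family, read 88.2, 115 and 144 in DVL4 dex, against 295, 281 and 314 in DVL4 mock and 212, 251 and 307 in empty vector dex. The groups were apart in both genes, as the choice required. The tetraspanin TET3 had 216, 212 and 196 in DVL4 dex, against 436, 438 and 372 in DVL4 mock and 343, 342 and 342 in empty vector dex, with empty vector arrays that were nearly equal. AT3G50790, an esterase/lipase family protein, gave 153, 196 and 249 in DVL4 dex, against 514, 542 and 464 in DVL4 mock and 452, 432 and 482 in empty vector dex, with DVL4 dex replicate 3 the nearest to the controls.

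Nuclear-encoded plastid proteins were represented by 7 members. This grouping and the others by role below were made from the members themselves, whose differences the choice holds below -0.7, so no group value is given. Cpn60beta2, a subunit of the plastid chaperonin that folds Rubisco and other proteins, had 223, 339.6 and 394 in DVL4 dex, against 855, 783 and 844 in DVL4 mock and 822, 578 and 643 in empty vector dex. The pentatricopeptide repeat protein CRR28 edits plastid ndh transcripts, and its intensities were 50.8, 59.6 and 68.5 in DVL4 dex, against 117, 120.4 and 98.5 in DVL4 mock and 116, 90.3 and 108 in empty vector dex. RH39, a DEAD-box helicase needed for plastid ribosomal RNA maturation, read 135, 149 and 186 in DVL4 dex, against 327, 315 and 293 in DVL4 mock and 240.4, 339 and 273 in empty vector dex. In each the DVL4 dex arrays were the lowest, and in Cpn60beta2 replicate 1 lay far under the others.

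AT5G46580 (SOT1), also a pentatricopeptide repeat protein of plastid RNA processing, had 244, 315 and 307 in DVL4 dex, against 547, 502 and 511 in DVL4 mock and 568, 502 and 509 in empty vector dex. AT4G38100 (CURT1D), of the family that curves thylakoid membranes, had 286, 349.9 and 268 in DVL4 dex, against 570.3, 545 and 565 in DVL4 mock and 566, 412 and 504 in empty vector dex. The cyclophilin-type isomerase AT1G74070 read 273, 309 and 407 in DVL4 dex, against 653, 823 and 622 in DVL4 mock and 439, 733 and 549 in empty vector dex. The groups were wide apart for AT5G46580, and in AT1G74070 DVL4 dex replicate 3 came close to empty vector replicate 1.

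AT5G39790 (PTST1), which brings granule-bound starch synthase to starch granules, had 39.4, 63.2 and 51.0 in DVL4 dex, against 130.1, 91.8 and 113 in DVL4 mock and 99.0, 78.2 and 87.9 in empty vector dex. The pentatricopeptide repeat proteins AT3G05340 and AT1G09900 completed the 4 members of that family. AT3G05340 had 143, 125 and 174 in DVL4 dex, against 289, 291 and 287 in DVL4 mock and 186, 288 and 256 in empty vector dex. AT1G09900 read 132, 139.5 and 149.6 in DVL4 dex, against 272, 282 and 256 in DVL4 mock and 217, 232 and 240.2 in empty vector dex. For AT3G05340 the empty vector replicate 1 was well under the other control arrays.

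Cytosolic translation factors were among the members. The small-subunit ribosomal protein gene AT3G57490 (RPS2 family) had 105, 123 and 132 in DVL4 dex, against 266, 283 and 254 in DVL4 mock and 216, 239 and 219 in empty vector dex. The large-subunit gene AT2G20450 (RPL14 family) had 345, 410.4 and 477 in DVL4 dex, against 734, 788 and 819 in DVL4 mock and 716, 635 and 686 in empty vector dex. AT5G12110, a subunit of elongation factor 1B, read 63.6, 85.4 and 88.1 in DVL4 dex, against 171, 180.0 and 158 in DVL4 mock and 161, 159 and 127 in empty vector dex. All 3 were lower in each DVL4 dex array by a clear margin. AT4G28450, a WD-repeat protein, had 47.8, 44.7 and 43.6 in DVL4 dex, against 103, 77.5 and 84.8 in DVL4 mock and 49.1, 108 and 85.5 in empty vector dex, where empty vector replicate 1 nearly reached the DVL4 dex arrays.

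Transcription factors in the set came from several families. TINY2 and AT1G01250 belong to the DREB branch of the AP2/ERF family, which answers to cold and drought. TINY2 had 52.8, 44.0 and 66.7 in DVL4 dex, against 119.6, 109 and 95.3 in DVL4 mock and 123, 118 and 116 in empty vector dex. AT1G01250 had 73.9, 62.1 and 63.2 in DVL4 dex, against 140.0, 151 and 153 in DVL4 mock and 129.7, 172 and 125 in empty vector dex. Their log2 differences lay between -1.16 and -0.999 in both comparisons, without overlap.

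MYC4, a bHLH activator of jasmonate responses and glucosinolate synthesis, had 185, 209 and 268 in DVL4 dex, against 387, 336 and 413 in DVL4 mock and 323, 520.2 and 491 in empty vector dex. STZ (ZAT10), a zinc finger repressor in stress responses, read 42.2, 78.6 and 63.2 in DVL4 dex, against 107, 115 and 175 in DVL4 mock and 93.7, 137 and 107 in empty vector dex. The PLATZ-domain protein AT1G76590 had 54.0, 55.3 and 57.3 in DVL4 dex, against 138, 139.6 and 84.1 in DVL4 mock and 98.6, 156 and 122 in empty vector dex. Of these 3, STZ had the widest standard errors, 0.27 on the log2 scale.

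Light and stomatal regulation each gave a member. AT3G44450 (BIC2), an inhibitor of the blue-light receptors called cryptochromes, had 362, 408 and 349 in DVL4 dex, against 853, 737 and 980.1 in DVL4 mock and 891, 727 and 952 in empty vector dex. The log2 difference was -1.19 ± 0.13 against DVL4 mock and -1.20 ± 0.13 against empty vector dex (SE, n = 3 a group), almost the same against each control. STOMAGEN, a secreted peptide made in mesophyll that raises the number of stomata, had 429, 565 and 612 in DVL4 dex, against 1002, 1113 and 1078 in DVL4 mock and 1096, 814 and 758 in empty vector dex. Its DVL4 dex replicates 2 and 3 were nearer to the empty vector arrays than replicate 1 was.

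Beside STOMAGEN, 3 other genes of stomata were measured. FMA, SPCH and MUTE, the transcription factors of the stomatal lineage, were not called in either comparison with DVL4 dex. FMA had mean intensities of 101 in DVL4 dex, 144 in DVL4 mock and 116 in empty vector dex. The means of MUTE lay between 17.0 and 23.1 and those of SPCH between 6.06 and 26.3. Their part in the result for STOMAGEN was not tested.

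Genes known from pathogen recognition gave 5 members. AT3G04210 (TN13) encodes a receptor-type protein with TIR and nucleotide-binding domains, and it had 207, 240.0 and 242 in DVL4 dex, against 586, 522 and 481 in DVL4 mock and 378, 731 and 694 in empty vector dex. The TIR-domain genes AT1G72900 and AT1G72940 lie 4 protein-coding genes apart. AT1G72900 had 111, 145 and 151 in DVL4 dex, against 218, 236 and 298 in DVL4 mock and 162, 237 and 291 in empty vector dex. AT1G72940 had 50.2, 66.4 and 81.6 in DVL4 dex, against 134, 102 and 137 in DVL4 mock and 84.5, 136 and 134 in empty vector dex. In both, empty vector replicate 1 was the control array nearest to DVL4 dex.

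AT5G36930, with TIR, nucleotide-binding and leucine-rich repeat domains, read 50.6, 50.5 and 54.0 in DVL4 dex, against 114, 84.5 and 87.2 in DVL4 mock and 84.3, 92.2 and 148 in empty vector dex. SGT1A, a co-chaperone of such receptors, had 150.4, 181 and 212 in DVL4 dex, against 362, 312 and 339 in DVL4 mock and 334, 318 and 432 in empty vector dex. The log2 difference of SGT1A was -0.91 ± 0.15 against DVL4 mock and -0.996 ± 0.15 against empty vector dex (SE, n = 3 a group).

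Genes grouped here under calcium and calmodulin, by family or domain, gave 3 members. AT2G41090 (CML10), a calmodulin-like calcium sensor, had 3508, 3882 and 3089 in DVL4 dex, against 6966, 6098 and 5484 in DVL4 mock and 6853, 7272 and 8307 in empty vector dex. The calmodulin-binding protein AT2G26190 (IQM4) had 84.8, 96.6 and 94.4 in DVL4 dex, against 233, 194 and 215 in DVL4 mock and 200.3, 221 and 309.7 in empty vector dex. AT1G67800, grouped here for its copine domain only, read 95.9, 101 and 105 in DVL4 dex, against 201, 191 and 173 in DVL4 mock and 167, 200.4 and 199 in empty vector dex. For AT1G67800 the replicates of each group were close together, and for all 3 genes the groups stood well apart.

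Among protein kinases and ubiquitin ligases, the receptor-like kinase AT3G03770 had 169, 202 and 183 in DVL4 dex, against 303, 343 and 309 in DVL4 mock and 388, 257 and 374 in empty vector dex. The kinase AT1G21590 had 193, 227 and 265 in DVL4 dex, against 413, 346 and 368 in DVL4 mock and 406, 466 and 567 in empty vector dex. AT5G17600, a RING-type ubiquitin ligase of the ATL family, read 104, 109 and 111 in DVL4 dex, against 230.1, 214 and 189 in DVL4 mock and 186, 186 and 237 in empty vector dex. In AT5G17600 the DVL4 dex arrays were nearly equal, and AT3G03770 had a wide spread in empty vector dex.

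Transport and secondary metabolism gave several members. GTR1, which imports glucosinolates into cells, had 278, 319 and 307 in DVL4 dex, against 672, 550.1 and 452 in DVL4 mock and 732, 622 and 697 in empty vector dex. AT1G68570 (NPF3.1), of the same transporter family, had 459, 461 and 591 in DVL4 dex, against 1038, 863 and 1174 in DVL4 mock and 848, 888 and 944 in empty vector dex. AT5G48220, an indole-3-glycerol phosphate synthase of tryptophan synthesis, read 289, 306 and 379.9 in DVL4 dex, against 524, 553 and 518 in DVL4 mock and 499, 538 and 541 in empty vector dex. The groups did not overlap in these 3 genes, as the choice required, and the DVL4 dex arrays of GTR1 were close together.

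The MATE-type efflux transporters AT3G26590 and AT1G61890 were members too. AT3G26590 had 87.9, 78.2 and 97.1 in DVL4 dex, against 211, 188 and 169 in DVL4 mock and 165, 138 and 209.9 in empty vector dex. AT1G61890 read 164, 173 and 231 in DVL4 dex, against 412, 345 and 421 in DVL4 mock and 284, 389 and 307 in empty vector dex. AT3G26590 is the 1 member gene with another probe set under its name, 257312_at, whose means were 49.9 in DVL4 dex, 60.3 in DVL4 mock and 55.2 in empty vector dex, log2 differences of only -0.22 and -0.14. The probe sets of this gene thus disagreed in size.

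Methyltransferases gave 4 members. AT1G73600, a phosphoethanolamine N-methyltransferase of choline synthesis, had 449.7, 338 and 428 in DVL4 dex, against 787, 701 and 820.3 in DVL4 mock and 737, 1200.1 and 986 in empty vector dex. AT1G33170 read 159.8, 163 and 224 in DVL4 dex, against 365, 402 and 402 in DVL4 mock and 325, 379.7 and 373 in empty vector dex. Its controls were alike, whereas AT1G73600 had a higher mean in empty vector dex. AT1G55450 had 257, 297 and 301 in DVL4 dex, against 593, 571 and 509 in DVL4 mock and 602, 673 and 677 in empty vector dex. AT4G36470 read 68.8, 81.7 and 61.8 in DVL4 dex, against 129, 159.9 and 99.7 in DVL4 mock and 121, 124 and 133 in empty vector dex, the narrowest separation of the 4.

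Of 8 other enzymes, the serine carboxypeptidase scpl46 had 377, 407 and 418 in DVL4 dex, against 761, 730.1 and 737 in DVL4 mock and 829, 824 and 920.1 in empty vector dex. The glutathione transferase GSTU27 had 413, 451 and 434 in DVL4 dex, against 823, 783 and 809 in DVL4 mock and 793, 735 and 678 in empty vector dex. The reductases AT2G37540 and AT2G29320 belong to the short-chain dehydrogenase family. AT2G37540 read 391, 388 and 421 in DVL4 dex, against 751, 833 and 704 in DVL4 mock and 803, 792 and 674 in empty vector dex. AT2G29320 had 139, 180.1 and 149.8 in DVL4 dex, against 319.6, 322 and 323 in DVL4 mock and 276, 241 and 263 in empty vector dex.

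The alpha/beta hydrolase AT4G12830 had 257, 359 and 375 in DVL4 dex, against 675, 673 and 576 in DVL4 mock and 784, 688 and 786 in empty vector dex. AT4G24350, of the phosphorylase superfamily, read 160.2, 209 and 215 in DVL4 dex, against 556, 459 and 420.2 in DVL4 mock and 389.6, 397 and 334 in empty vector dex. The peptidase AT5G22860 had 79.2, 65.3 and 69.5 in DVL4 dex, against 163, 140.1 and 113 in DVL4 mock and 125, 138 and 114 in empty vector dex. All of these arrays kept the order that the choice required, and the standard errors of the 8 enzymes on the log2 scale ran from 0.08 to 0.16.

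Several of the deepest members carry no gene name here. The reading of 249752_at was 112, 141 and 109 in DVL4 dex, against 546, 514 and 456 in DVL4 mock and 398, 421 and 487 in empty vector dex. That of 246620_at was 34.4, 46.6 and 46.1 in DVL4 dex, against 248, 101 and 132 in DVL4 mock and 179, 117 and 135 in empty vector dex. For 258675_at the intensities were 25.7, 27.6 and 33.9 in DVL4 dex, against 88.3, 64.1 and 123 in DVL4 mock and 102, 92.6 and 83.3 in empty vector dex. In 249752_at each group was tight and the groups were far apart, and in 246620_at the DVL4 mock replicate 1 was far above the other control arrays.

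Near the limit of 0.7 the members differed little from probe sets outside it. Just inside were AT4G38100, AT1G34570 and AT5G48220, whose smaller differences were 0.710, 0.706 and 0.705 on the log2 scale. Just outside were AT2G21860, AT5G67350 and AT5G02940 at 0.698, 0.690 and 0.688. AT2G21860 had mean intensities of 488 in DVL4 dex, 886 in DVL4 mock and 791 in empty vector dex.

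Probe sets outside the choice with the most similar profile were ranked by Pearson correlation with the mean centred log2 profile of the members over the 9 arrays. The 5 highest among those with a gene name were AT3G53170 (0.990), AT2G21860 (0.986), AT4G26860 (0.980), AT1G44760 (0.980) and AT3G13180 (0.977). All 5 were lower in DVL4 dex, with log2 differences between -0.86 and -0.49 against DVL4 mock and between -0.70 and -0.46 against empty vector dex. The members were chosen on the same 9 arrays, so these values describe likeness only.

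The places of the members with a gene name along the genome are given without a comparison to other genes, so whether they cluster was not tested. Of the 99 member genes, 98 could be placed in the RefSeq order of genes (TAIR10.1), and 0 pairs of members were next to each other. In 6 pairs the genes lay within 5 protein-coding genes, AT1G68570 with AT1G68585 at 2, AT4G36470 with AT4G36500 and AT5G22860 with HTB2 at 3, AT1G72900 with AT1G72940 at 4, and AT1G33170 with AT1G33260 and AT3G28220 with AT3G28270 at 5.

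The members were set against 17 lists of genes by pathway or cell type, of whose 659 entries 117 were measured under a gene name. In the family of wall O-acetylation (TBL and RWA genes) 23 were measured and TBL26 was the only member. Against DVL4 mock 3 were called higher, beside 12.8% of all probe sets, and 5 lower, beside 10.9%. Against empty vector dex 2 were called higher, beside 4.62% of all probe sets, and 3 lower, beside 5.53%. TBL26 is among those called lower in both comparisons, which follows from the choice. The medians of the family were 0.00 and -0.08, and those of all probe sets 0.01 and 0.

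TBL genes outside the set moved in either direction. TBL18 was higher in DVL4 dex, with means of 303 in DVL4 dex, 168 in DVL4 mock and 221 in empty vector dex, and limma's adjusted p was 0.00036 against DVL4 mock and 0.021 against empty vector dex. TBL37 was lower, with means of 67.0 in DVL4 dex, 176 in DVL4 mock and 108 in empty vector dex (limma adjusted p of 0.0001 and 0.011). TBL45 averaged 340.0 in DVL4 dex, 794 in DVL4 mock and 427 in empty vector dex. It was called against DVL4 mock (limma adjusted p of 0.00059) and not against empty vector dex.

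The flavonol and anthocyanin list held 0 members, although 8 of its 10 measured genes fell against DVL4 mock, beside 10.9% of all probe sets, and 5 fell against empty vector dex, beside 5.53%, by limma, with 0 higher in either comparison. Its median differences were -2.07 and -0.67, beside 0.01 and 0 over all probe sets. The controls were not level for most of these genes, and over the list DVL4 mock was above the empty vector by a median of 0.90 (log2). They lay within the limit of 0.4 for CHI (0.30), UGT78D1 (0.15) and UGT78D3 (0.18). UGT78D1 was lower in DVL4 dex, with log2 differences of -0.65 and -0.49, and missed the limit of 0.7. CHI differed by -0.26 and 0.04. UGT78D3 was dim, with means of 16.0 in DVL4 mock and 13.9 in empty vector dex. CHIL, a chalcone isomerase-like protein that raises flavonoid output, averaged 233 in DVL4 dex, 1290.4 in DVL4 mock and 646 in empty vector dex. UGT78D2, a flavonoid glucosyltransferase, averaged 359 in DVL4 dex, 993 in DVL4 mock and 641 in empty vector dex.

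The TRAF-like list had 11 measured entries, of which UGT72E3, a glycosyltransferase, was entered in error. AT3G28220 was the only member in the list, which did not hold the TRAF-like member ZW9. The calls of AT3G28220 follow from the choice. Against DVL4 mock 2 entries fell and 9 were not called, and against empty vector dex 1 fell and 10 were not called, beside 10.9% and 5.53% of all probe sets called lower. Counts this small say little about the family. The second call against DVL4 mock was AT5G26280, with means of 7.99 in DVL4 dex, 30.4 in DVL4 mock and 5.80 in empty vector dex.

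The list of salicylic acid and defence genes contained AT3G28270 and 6 other measured genes. Against empty vector dex 4 of the 7 fell, AT3G28270 among them, beside 5.53% of all probe sets. Against DVL4 mock AT3G28270 fell and SAG101 was higher (limma adjusted p of 0.040). Between the controls 3 of the 7 were lower in DVL4 mock than in the empty vector arrays, beside 4.15% of all probe sets. The calls of AT3G28270 follow from the choice. The other 3 called lower against empty vector dex (AT5G03350, AT3G48080 and AT1G13470) did not pass limma's test against DVL4 mock. AT5G03350, a lectin-domain gene induced by salicylic acid, averaged 664 in DVL4 dex, 1348 in DVL4 mock and 2963 in empty vector dex.

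Apart from STOMAGEN, POLA3, TBL26, AT3G28220 and AT3G28270, no list held a member. The lists of cuticle and wax, lipid transfer, jacalin lectins, auxin, leaf growth, trichome patterning and actin regulation had 0 members among 2 to 15 measured genes each. Auxin-related WES1, a GH3 enzyme that conjugates auxin, averaged 160.5 in DVL4 dex, 40.1 in DVL4 mock and 52.7 in empty vector dex, the opposite direction to the members.

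The arrays with a low 5' ratio hold 2 of the 3 DVL4 dex replicates, so the members were also read by class of array. DVL4 dex replicate 3, the array with the high ratio, lay below the mean of DVL4 mock for all 188 members, with a median log2 difference of -0.90, and by at least 0.7 for 159. Below the mean of the empty vector arrays with a high ratio it lay for all 188, with a median of -0.81, and by at least 0.7 for 130. The requirement of separate arrays fixes these directions. Replicate 3 also entered the DVL4 dex mean that had to lie 0.7 below each control mean, so the choice shapes the sizes too. The same holds for the other readings by class of array below.

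Between arrays with a low ratio the members differed by a median of -0.99 (replicates 1 and 2 of DVL4 dex against replicate 1 of the empty vector), and by at least 0.7 for 163. Within empty vector dex, the low-ratio array differed from the others by a median of -0.05, with 105 members lower. Within DVL4 dex, the low-ratio arrays were lower than replicate 3 by a median of 0.19, with 149 members lower, while the median over the 8913 bright, level probe sets was -0.01. The lowest DVL4 dex array was replicate 1 for 119 members, replicate 2 for 43 and replicate 3 for 26.

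The members with the smallest differences in replicate 3 alone included AT5G19810, at 0.43 (log2) lower than DVL4 mock and 0.29 lower than empty vector dex. STOMAGEN was lower by 0.80 and 0.36. AT3G28220, AT3G28270 and TBL26 kept large differences in the same reading, of -2.37 and -2.89, -1.65 and -1.92 and -1.62 and -1.56. With the low ratio as a covariate in the fit of all 9 arrays, the members' median differences were -0.96 against DVL4 mock and -0.91 against empty vector dex. All 188 stayed below 0 in both comparisons, and 161 and 162 of them were at least 0.7 lower. The same 9 arrays chose the members, so these values describe them and test nothing about the low ratio.

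**Figure D5:**
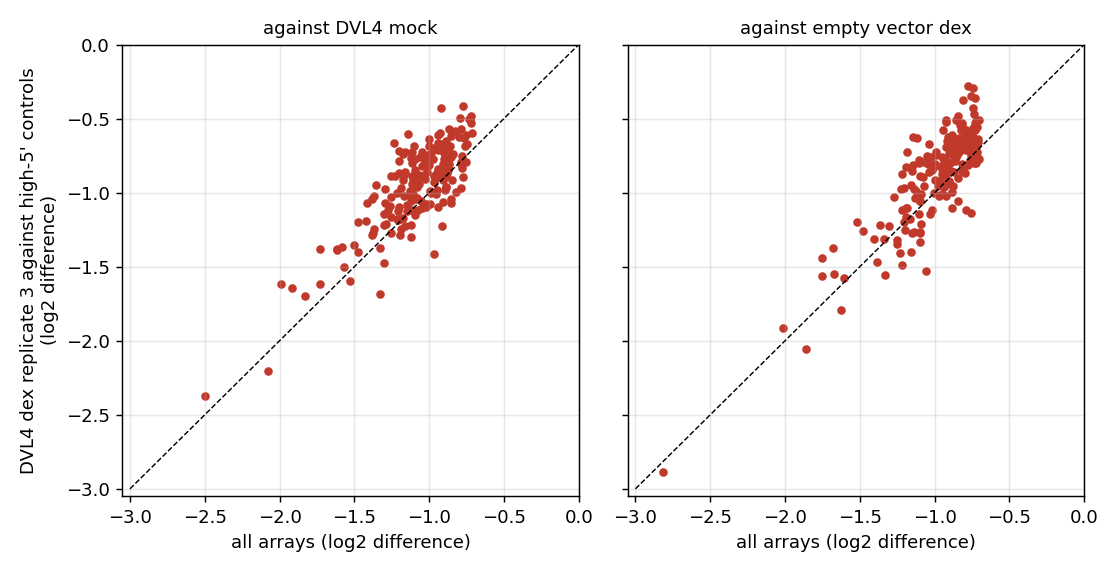
Log2 difference of each of the 188 members over all arrays (x axis) and in DVL4 dex replicate 3 against control arrays with a high 5' ratio (y axis), against DVL4 mock (left) and empty vector dex (right). All points lie below 0 on both axes, as the choice requires, with medians on the y axis of -0.90 (left) and -0.81 (right). The dashed line marks equality.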

How the data were processed

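Total RNA of pooled rosette leaves was hybridised by the authors to Affymetrix ATH1 arrays, 3 for each of 3 groups, and the groups and replicate numbers were read from the sample titles. The authors deposited linear-scale intensity values from dChip, per the labels, and version, model and normalization are not given in the sources. Of 22810 probe sets, 64 AFFX controls were left out. Values under 5 were raised to 5 and log2 was taken, with no further normalization. The supplied platform table, whose annotation can be old, gives 13513 probe sets 1 gene and 503 several, and leaves 8730 unnamed.

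The members follow the limits given in the report. Members, gene lists, roles and alternatives were chosen with earlier results of these data known. Calls are from limma 3.58.1 in R 4.3.3 (lmFit on group over all 9 arrays, then eBayes with trend=TRUE, 2-sided), with Benjamini-Hochberg adjustment over 22746 probe sets and a threshold of 0.05; the steps were tested on simulated data. Standard errors come from that fit and assume similar spread in the groups. The labels name the replicates as biological, and 3 arrays a group limit the precision. Replicate numbers do not pair the arrays, since same-numbered arrays of different groups had deviations correlated at -0.148 to 0.140.

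Members with a gene name were ranked by the smaller of their log2 differences from the controls. Values in all arrays are given for the 15 highest, for members in a list and for members that share a role, and any further member named was picked once its values were known. Among list genes outside the set, up to 4 called genes per list were eligible by smallest p. Roles of genes come from general knowledge. Python 3.11.15 and matplotlib 3.10.9 were used for the descriptions and figures.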

Additional observations from a re-analysis of the deposited data

How the results depend on the processing

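The limits decided the size of the set more than the scaling did. With a minimum difference of 1.0 in place of 0.7, 51 probe sets met the limits, with 0.5 they numbered 420, and with controls within 0.2 of each other 116. Quantile normalization gave 178, of which 165 were shared, and median centring 148, of which 146 were shared. A floor of 1 or at the 25th percentile left the same 188. Leaving out each array in turn gave between 156 and 261. Of the 376 differences of the 188 members, 0 changed sign under the floors, the scalings, the filter on dim probe sets or the left-out arrays. Median centring moved 1 of them by more than the spread between replicates and these other settings 0, with 352 measured under the filter on dim probe sets. The limits of the choice fix the signs under the floors, the filter and the left-out arrays, so nothing is read from the signs.

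A setting without the 3 arrays with a low 5' ratio was chosen after seeing the data. In it 144 probe sets met the limits, of which 105 were shared. Of the 376 differences, 142 moved by more than that spread and 0 changed sign, which the choice fixes here too. DVL4 dex then has 1 array, assumed to vary like the other groups. The calls over all probe sets dropped to 1364 against DVL4 mock and 4 against empty vector dex, and 553 remained between the controls, against 5389, 2310 and 1411 with all arrays. For list genes these calls were 14, 1 and 7, against 36, 27 and 13. With the low ratio as a covariate and all arrays kept, the calls were 3989, 2453 and 1490, and for list genes 27, 28 and 15.

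Fitting only the groups compared gave 1146 calls against empty vector dex and 875 between the controls, and trend=FALSE gave 824 between the controls. Median centring gave 20 list gene calls between the controls. Leaving out each array gave 3463 to 6087 calls against DVL4 mock, 983 to 2250 against empty vector dex and 465 to 2091 between the controls. For list genes it gave 25 to 38, 16 to 27 and 7 to 16. DVL4 dex replicate 1 gave the lowest counts against both controls (3463 and 983 without it). Against empty vector dex the count was 1315 without DVL4 dex replicate 2 and 1538 without empty vector replicate 3, and between the controls it was 742, 566 and 465 without DVL4 mock replicates 1, 2 and 3 and 602 without empty vector replicate 3.

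With the replicate number as a block, calls were 5090, 2021 and 1233, and for list genes 31, 27 and 16. The numbers share no known source, and the block is given for completeness.

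Under the floor, and for dim list genes, large folds are poorly measured. With 3 arrays a group, small differences were not resolved. Copies of the H3.1, H3.3 and H4 genes share probe sets, so single genes of those classes were not resolved.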
